A study of Mus musculus with 9 samples.

Results

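Cd109, Nt5e, Cd59a and Pgap1 were the 4 genes examined, of 22180 genes with a probe set of their own among 41345 probe sets on the arrays. They were chosen by their measured difference from control after 48 h of doxycycline (Dox): each is a gene of the glycosylphosphatidylinositol (GPI) anchor system whose level stood far above control at that time, so its 48 h values describe the choice and are given without a test. Each gene was represented by the probe set whose single annotated symbol it was, and each had 1 such probe set. Cd109, Nt5e and Cd59a encode proteins held in the outer leaflet of the plasma membrane by a GPI anchor in place of a transmembrane segment. The anchor is built in the endoplasmic reticulum by a chain of Pig enzymes, joined to the protein by the GPI transamidase, and then trimmed by remodelling enzymes, of which Pgap1, the inositol deacylase, acts first. GPI-anchored proteins gather in ordered membrane domains and can be shed from the cell surface by enzymes that cut the anchor, and on blood cells they include complement regulators, ectoenzymes and coreceptors.

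RNA came from MLL-AF9-OSKM acute myeloid leukemia cells sorted from the spleens of C57BL/6J recipient mice, measured on Affymetrix Mouse Gene 2.0 ST arrays with 1 array per sample. All 3 groups carried the MLL-AF9 fusion oncogene, marked by GFP, and an OSKM cassette (Oct4, Sox2, Klf4 and c-Myc) under the tetO promoter, and all recipients were sub-lethally irradiated before the cells were given. The groups were control mice that received no Dox (n = 3), mice given Dox in their drinking water for 48 h (n = 3) and mice given it for 72 h (n = 3). The age of the mice was not given in the sources used here. No group received Dox with cells that lacked the cassette, so what Dox itself does and what the OSKM factors do cannot be told apart, and in bulk RNA of sorted cells a changed share of cells of a type and a changed RNA amount per cell cannot be told apart either.

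The values were log2 signals per probe set, and the array medians lay between 3.71 and 3.869. The markers fixed for MLL-AF9 leukemia and myeloid cells were measured 10 of 10. They had a mean log2 signal of 8.87 to 9.03 on the 9 arrays, well above the array medians. Of the 10, 2 were higher and 2 lower than control at 48 h (limma, adjusted p under 0.05), with differences between -1.36 and 1.02. At 72 h, 1 was higher and 0 lower. The shares of all probe sets called higher and lower were 1.12% and 0.481% at 48 h, and 1.16% and 1.33% at 72 h. The neutrophil list (7.61 to 8.13) and the nonclassical monocyte list (6.59 to 7.95) also lay above the medians. These levels therefore do not set leukemia cells apart from other myeloid cells. The third Dox 72 h array stood apart in markers of other blood cells. Its T cell list (7 of 9 genes measured) averaged 5.51 against 4.34 and 4.47 on the other Dox 72 h arrays, and its platelet list (7 of 8 measured) averaged 6.30 against 4.90 and 4.96. The third control array also had more platelet signal (5.15, against 4.45 and 4.52 on the other controls). Results that leaving out the third Dox 72 h array changed are named where they are given.

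The 4 genes stood far above control after 48 h of Dox and had lost much of that height by 72 h. Their mean log2 differences from control at 48 h were between 2.91 and 4.16, and at 72 h between 0.58 and 1.46. All of the 3 Dox 48 h arrays lay above all 3 control arrays for 4 of 4 genes, a separation that 7.37% of all probe sets had and that the choice of the genes fixed. Over all probe sets, 1.12% were called higher and 0.481% lower at 48 h. At 72 h, 3 of the 4 genes (Cd109, Nt5e and Cd59a) were past the adjusted p threshold of 0.05 above control, where 1.16% of all probe sets were called higher and 1.33% lower, and Pgap1 was not. Between the time points, 4 of 4 were lower at 72 h than at 48 h past the threshold, where 0.208% of all probe sets were called lower and 0.00726% higher. All 3 Dox 72 h arrays lay below all 3 Dox 48 h arrays for 4 of 4 genes, as for 8.15% of all probe sets. Both results between the time points rest on the 48 h arrays that served to choose the genes. The choice thus fixed them in part, and the shares over all probe sets are no measure of an excess. The plot of the values by array shows these 3 levels for each gene.

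**Figure D1:**
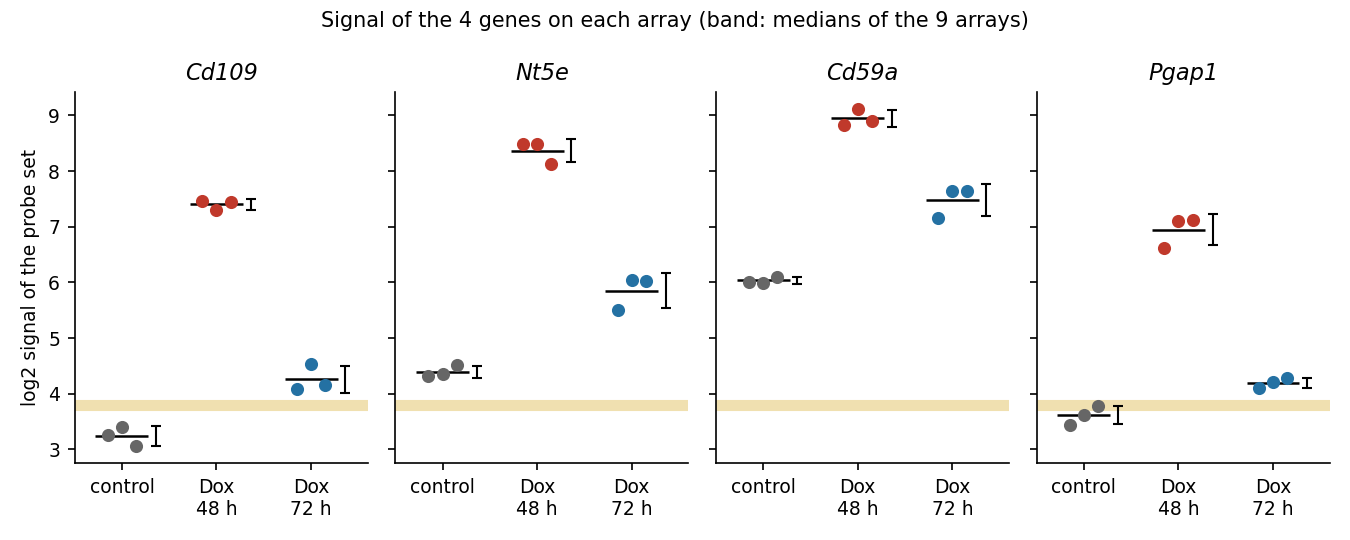
Log2 signal of Cd109, Nt5e, Cd59a and Pgap1 on each of the 9 arrays (points), with the mean and SD of the 3 arrays of control, Dox 48 h and Dox 72 h. In each panel the Dox 48 h arrays stand highest, the Dox 72 h arrays lie between, and no array of one group reaches the range of another. The shaded band spans the medians of the 9 arrays, 3.71 to 3.869.

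Cd109 encodes a GPI-anchored protein of the alpha-2-macroglobulin family that is known as a TGF-beta coreceptor which dampens signalling, and that was first described on activated T cells, platelets and blood progenitors. The gene lies on chromosome 9, chr9:78615546-78716260 in the mouse build GRCm38.p6. Its log2 signal was 3.26, 3.40 and 3.05 on the control arrays, 7.46, 7.29 and 7.44 on the Dox 48 h arrays, and 4.09, 4.54 and 4.16 on the Dox 72 h arrays. The Dox 48 h arrays formed a tight, separate group, and the lowest Dox 72 h array lay 0.68 above the highest control. Its mean was 3.24 ± 0.175 (SD, n = 3) in control cells, below the array medians, with no detection call used to say whether it was above background, and 7.40 ± 0.0927 at 48 h. The difference at 48 h was 4.16 ± 0.137 (SE) on the log2 scale, a 17.9-fold ratio and the highest of all 22180 genes. At 72 h its mean was 4.26 ± 0.242, which was 1.02 ± 0.137 above control (95% confidence interval 0.71 to 1.34; 2.03-fold; limma, adjusted p = 0.0118), measured against controls that had served in the choice. Without the first control array this adjusted p was 0.0526 at a difference of 1.03, and in a fit of the Dox 72 h and control arrays alone it was 0.0542.

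Nt5e encodes CD73, the GPI-anchored ectoenzyme that removes the phosphate from extracellular AMP to give adenosine, a signal that restrains immune cells. It lies on chromosome 9 as well, at chr9:88327609-88372089. Its log2 signal was 4.31, 4.36 and 4.51 in control cells, 8.49, 8.48 and 8.13 after 48 h, and 5.50, 6.03 and 6.02 after 72 h. The 3 groups did not overlap, and the arrays at 72 h spread more (SD 0.307) than the controls (SD 0.106). The difference at 48 h was 3.97 ± 0.164, or 15.7-fold, which placed it at rank 3 of all genes. At 72 h the mean of 5.85 was 1.46 above the control mean of 4.39 (95% confidence interval 1.08 to 1.83; 2.74-fold; limma, adjusted p = 0.00613).

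Cd59a encodes the main mouse CD59, a GPI-anchored inhibitor that keeps the membrane attack complex of complement from assembling in the cell's own membrane. It lies on chromosome 2, at chr2:104095753-104115410. Its log2 signal was 6.01, 5.99 and 6.10 in control cells, 8.83, 9.12 and 8.90 after 48 h, and 7.16, 7.64 and 7.64 after 72 h. The groups did not overlap and the controls lay within a narrow span (SD 0.0584). The first Dox 72 h array was the lowest of its group, as it was for each of the 4 genes. The difference at 48 h was 2.91 ± 0.141, or 7.53-fold, the smallest of the 4. At 72 h the mean of 7.48 was 1.44 above the control mean of 6.04 (95% confidence interval 1.12 to 1.77; 2.72-fold; limma, adjusted p = 0.00409). Cd59b, the second mouse Cd59 gene, which is best known from the testis, stayed between 3.51 and 3.97 on the 9 arrays. Its difference from control was 0.25 at 48 h (95% confidence interval 0.03 to 0.46; adjusted p = 0.383), then 0.08 at 72 h (adjusted p = 0.722). How far the probes tell these similar genes apart was not tested.

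Pgap1 encodes the enzyme of the endoplasmic reticulum that removes the acyl chain from the inositol of the anchor once the protein is attached, a step needed for the prompt export of GPI-anchored proteins. It lies on chromosome 1, at chr1:54473000-54557684. Its log2 signal was 3.44, 3.62 and 3.78 in control cells, 6.62, 7.10 and 7.12 after 48 h, and 4.10, 4.20 and 4.27 after 72 h. The 72 h arrays stood close to the controls, with their lowest value 0.32 above the highest control. The difference at 48 h was 3.33 ± 0.147, or 10.1-fold. Each control value lay below the median of its array, with no detection call used to say whether it was above background. At 72 h the difference was 0.58 ± 0.147 (95% confidence interval 0.24 to 0.92; 1.49-fold; limma, adjusted p = 0.0923), which was not past the threshold. All 3 Dox 72 h arrays lay above all 3 controls, as they did for 9.1% of all probe sets. The call turned on 1 array of the shared spread: without the first Dox 48 h array the adjusted p was 0.0383 at the same difference of 0.58.

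All 4 genes were lower at 72 h than at 48 h, in a comparison whose 48 h arrays are those on which they were chosen. From 72 h minus 48 h, the difference was -3.14 for Cd109 (8.80-fold lower at 72 h; limma, adjusted p = 0.000417), -2.75 for Pgap1 (6.75-fold lower; adjusted p = 0.000555) and -2.51 for Nt5e (5.71-fold lower; adjusted p = 0.00211). Cd59a fell by 1.47 on the log2 scale (2.77-fold lower; adjusted p = 0.0137). Counted from the lowest of 41345 probe sets, these differences had ranks 1, 2, 5 and 68, which the choice of genes high at 48 h fixed in part. The Cd59a call was lost without the second Dox 48 h array (-1.38, adjusted p = 0.0567), without the third (-1.49, adjusted p = 0.0531) and in a fit of those 6 arrays alone (-1.47, adjusted p = 0.0877). The size of each fall is likewise not independent of the choice.

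The plot of the differences sets the 3 comparisons side by side for each gene. Of the log2 difference from control at 48 h, 49.6% was left at 72 h for Cd59a, 36.7% for Nt5e, 24.6% for Cd109 and 17.3% for Pgap1. The 3 surface proteins thus kept a larger share than the enzyme in the means, and no test was made of the differences between genes. The order of the genes by their difference from control also differed between the times, with Cd109 highest at 48 h and Nt5e and Cd59a highest at 72 h. Without the third Dox 72 h array, the 72 h differences from control were 1.07 for Cd109 (adjusted p = 0.0325), 1.37 for Nt5e (0.0242), 1.36 for Cd59a (0.016) and 0.54 for Pgap1 (0.227). Without the third control array they were 0.93 (0.0366), 1.52 (0.0208), 1.48 (0.0155) and 0.66 (0.116) for the same genes in that order. Leaving out either array thus changed no call of the 4 genes at 72 h.

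**Figure D2:**
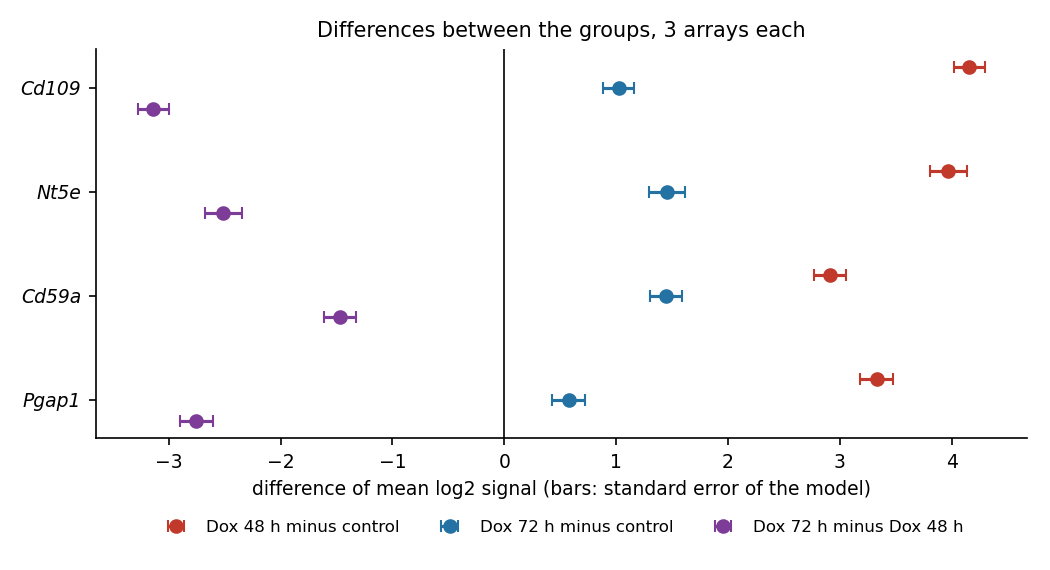
Differences of mean log2 signal of the 4 genes, as Dox 48 h minus control, Dox 72 h minus control and Dox 72 h minus Dox 48 h, with the standard error of the limma fit over 9 arrays as bars. The 48 h differences run from 2.91 to 4.16 and were used to choose the genes, those at 72 h run from 0.58 to 1.46, and all 4 differences between the times lie below 0.

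Over the 9 arrays the 4 genes followed one course. Pearson's r between pairs of them was between 0.931 (Cd59a with Pgap1) and 0.986 (Nt5e with Cd59a), values that mostly restate the 3 group levels. Within groups, the deviations of the arrays from their group means gave r = 0.81 for Nt5e with Cd59a and 0.52 for Cd59a with Pgap1, and between -0.25 and 0.21 for the other pairs. These are descriptions over 9 arrays that share their groups.

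The 300 bases around each annotated start site, from 250 before it to 50 after it, are shown for the 3 of the 4 genes that the table of RefSeq promoters used here (GRCm38.p6) lists, Nt5e, Cd59a and Pgap1, because these genes moved together, and for Cd59b, the relative that stayed low. Each is written 5′ to 3′ on the gene's strand. Capitals mark matches, on either strand, to letters known for the OSKM factors: GGGNGNGGC for the KLF family, ATGCAAAT for Oct4, CATTGT for the SOX family and CACGTG for c-Myc, with AAAGGTCA for the NR4A receptors.
Nt5e, chr9:88327359-88327658, plus strand: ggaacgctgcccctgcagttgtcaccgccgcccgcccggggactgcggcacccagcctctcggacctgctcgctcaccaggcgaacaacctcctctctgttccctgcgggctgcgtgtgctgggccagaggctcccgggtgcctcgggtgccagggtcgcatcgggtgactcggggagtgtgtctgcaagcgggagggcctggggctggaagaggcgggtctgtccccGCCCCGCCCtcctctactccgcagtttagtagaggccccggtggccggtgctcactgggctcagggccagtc
Cd59a, chr2:104095551-104095850, plus strand: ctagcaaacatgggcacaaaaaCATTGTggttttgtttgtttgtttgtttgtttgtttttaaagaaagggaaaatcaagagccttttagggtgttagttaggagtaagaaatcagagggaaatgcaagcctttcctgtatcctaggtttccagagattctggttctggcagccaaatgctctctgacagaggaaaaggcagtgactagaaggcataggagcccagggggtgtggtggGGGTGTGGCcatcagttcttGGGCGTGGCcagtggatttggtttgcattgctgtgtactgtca
Pgap1, chr1:54557635-54557934, minus strand: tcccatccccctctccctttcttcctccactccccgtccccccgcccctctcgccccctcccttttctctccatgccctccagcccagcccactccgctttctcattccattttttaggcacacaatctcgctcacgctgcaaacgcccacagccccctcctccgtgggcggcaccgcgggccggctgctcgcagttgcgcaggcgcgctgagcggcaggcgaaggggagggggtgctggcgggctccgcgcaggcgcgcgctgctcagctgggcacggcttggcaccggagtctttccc
Cd59b, chr2:104070816-104071115, plus strand: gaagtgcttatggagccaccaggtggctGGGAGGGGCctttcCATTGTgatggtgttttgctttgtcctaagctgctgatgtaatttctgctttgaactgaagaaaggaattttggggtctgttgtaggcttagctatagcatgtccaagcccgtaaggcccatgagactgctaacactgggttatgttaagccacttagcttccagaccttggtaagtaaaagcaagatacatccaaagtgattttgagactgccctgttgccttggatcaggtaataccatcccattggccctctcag

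The Nt5e and Pgap1 windows were rich in G and C (71.0% and 69.3% of bases), and the Cd59a and Cd59b windows were not (45.7% and 47.0%). The Cd59a window held 2 KLF matches, at 13 bases before and 8 bases after the start site, and 1 SOX match. The Nt5e window held 1 KLF match on the opposite strand, 22 bases before the start site, and the Pgap1 window held none of the 5 motifs. Cd59b, whose level did not pass the test, held 1 KLF and 1 SOX match. Of 32851 promoters of the same length, 25.8% held a KLF match, 8.37% held at least 2, and 12.6% held a SOX match, so such matches were common. Oct4 matches were in 1.74%, c-Myc matches in 7.15% and NR4A matches in 1.51% of promoters, and in none of the 4 shown. A match describes letters only.

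The other genes of the anchor machinery stayed near control while Pgap1 was high, as the plot of the GPI lists shows. Pgap1 aside, 7 genes of anchor remodelling and export were measured, and 0 passed the test in either direction at 48 h or at 72 h (limma; 1 at each time had an unadjusted p under 0.05), with medians of -0.03 and -0.01 beside medians of -0.02 and -0.01 over all probe sets. Pgap2 and Pgap3, which exchange the fatty acid of the anchor in the Golgi after Pgap1 has acted, differed from control by -0.05 and -0.18 at 48 h and by 0.09 and -0.11 at 72 h (Pgap3 by -0.22 without the third Dox 72 h array). Of 20 measured enzymes of anchor synthesis, 0 passed at 48 h (2 had an unadjusted p under 0.05) and 1 fell at 72 h (5 had an unadjusted p under 0.05). That gene was Piga, the catalytic subunit of the first step of the pathway, at -0.67 (adjusted p = 0.0359). The Piga call held in only 1 of the 9 fits that left out an array, the one without the first Dox 48 h array, with adjusted p up to 0.11, and it was lost with each array centred on its median (0.0812). Among all probe sets, 1.12% were called higher and 0.481% lower at 48 h, and 1.16% and 1.33% at 72 h. At such shares, lists this short would hold few calls or none.

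All 5 subunits of the GPI transamidase, the complex that joins anchor and protein, were measured and 0 passed at either time (0 had an unadjusted p under 0.05). Its protease subunit Pigk differed from control by 0.05 at 48 h and -0.01 at 72 h, Pigt by -0.04 and -0.07, and Gpaa1 by -0.06 and 0.01. Of 7 enzymes that release GPI-anchored proteins from cells, 0 passed at either time (2 had an unadjusted p under 0.05 at 48 h and 0 at 72 h). Between the times none of the other genes of synthesis, the transamidase, remodelling and release passed (5, 1, 0 and 0 had an unadjusted p under 0.05). Over these 4 lists without Pgap1, the differences from control at 48 h lay between -0.33 and 0.17, beside 3.33 for Pgap1.

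Of 32 other GPI-anchored proteins of blood cells that were measured, 5 were higher and 0 lower at 48 h, and 6 were higher and 0 lower at 72 h. At 72 h against 48 h, 0 were higher and 1 lower. In the same order, 14, 13 and 12 of the 32 had an unadjusted p under 0.05. Over all probe sets, 1.12% were called higher and 0.481% lower at 48 h, 1.16% and 1.33% at 72 h, and 0.00726% and 0.208% between the times. The median difference of the 32 from control was 0.27 at 48 h and 0.15 at 72 h, beside -0.02 and -0.01 over all probe sets. At the edge of the choice, the smallest 48 h difference among the 4 was 2.91, for Cd59a, and the next GPI gene was Ly6g, a neutrophil surface protein, at 1.19 (limma, adjusted p = 0.00785), a gap that the choice of the 4 fixed. Ly6g was the 1 called gene of the neutrophil list at 48 h, whose 9 genes had a median of -0.37 and averaged 7.69 to 7.79 on the Dox 48 h arrays, against 7.87 to 8.13 on the control arrays. Vnn3, a GPI-anchored pantetheinase, rose by 0.92 (adjusted p = 0.00775) at 48 h and was 0.49 above control at 72 h (adjusted p = 0.0693). Cd48, a SLAM family ligand, was the one gene of the list past the threshold above control at both times. Its log2 signal was 7.91, 7.86 and 7.95 in control cells, 8.99, 8.70 and 8.78 after 48 h, and 8.94, 9.02 and 9.37 after 72 h. Its differences were 0.92 at 48 h (adjusted p = 0.0106), then 1.21 at 72 h (adjusted p = 0.0047), so unlike the 4 genes its mean was no lower at 72 h. The 48 h call of Cd48 was lost without the first (0.0501) or the second control array (0.0523).

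Cd14, the coreceptor for lipopolysaccharide, had the same kind of course as the 4 genes at a smaller size. It rose by 0.82 at 48 h (adjusted p = 0.0138), differed by -0.14 from control at 72 h (adjusted p = 0.589), and fell by 0.96 between the time points (adjusted p = 0.0272). Its 48 h call was lost without the second or the third control array or any Dox 48 h array (adjusted p up to 0.065), and its fall held in only 1 of 9 such fits (up to 0.119). Plaur, the urokinase receptor, rose by 0.54 at 48 h (adjusted p = 0.0205) and differed by -0.02 at 72 h, and its call was lost without any 1 of the controls or without the second or the third Dox 48 h array (up to 0.0787). The 72 h calls of Bst2, Ly6c2, Ly6i, Ly6k and Cd52 ranged from 0.72 to 2.66. Of these, Cd52 (0.83, adjusted p = 0.0268) was called in 3 of 9 fits that left out an array (up to 0.081). The other 4 and Cd52 were all lost without the third Dox 72 h array (adjusted p = 0.067 to 0.103). They were likewise all lost without the first control (0.081 to 0.126), the second control (0.0791 to 0.0938) or the second Dox 72 h array (0.0624 to 0.0898). Several of the Ly6 genes are near-identical copies whose probes may share signal. Of 47 GPI-anchored proteins of other tissues, 1 passed at each time, with 2 at 48 h and 6 at 72 h at an unadjusted p under 0.05. Beside these, 1.12% of all probe sets were called higher and 0.481% lower at 48 h, and 1.16% and 1.33% at 72 h. On average over the 9 arrays, 35 of the 47 ranked below the array median. The called gene was lower at both times: Gpc1, a glypican heparan sulfate proteoglycan, at -0.96 after 48 h (adjusted p = 0.0033), then -0.62 after 72 h (adjusted p = 0.0207). The 72 h call of Gpc1 was lost without the second or the third control array or the second Dox 72 h array (up to 0.0729).

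**Figure D3:**
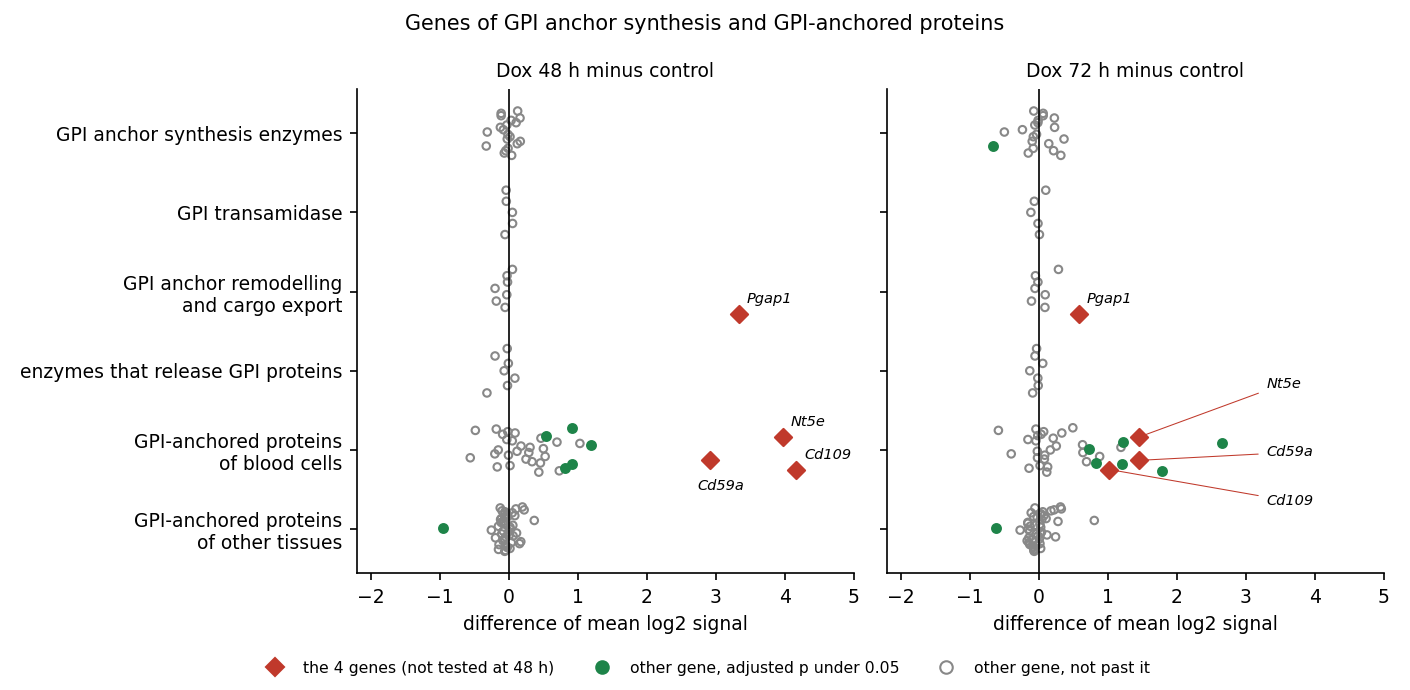
Differences of mean log2 signal, Dox 48 h minus control (left) and Dox 72 h minus control (right), for each measured gene of 6 lists of the GPI system. Red diamonds are Pgap1, Nt5e, Cd59a and Cd109, green points are other genes with an adjusted p under 0.05 and open circles are the rest. The machinery genes other than Pgap1 lie near 0, with Piga at -0.67 the 1 called gene among them at 72 h.

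Each surface protein also belongs to a pathway of its own, and the partners of each were examined. Around CD73, 19 other genes of extracellular nucleotide and adenosine handling were measured. Of these, 2 were higher and 2 lower at 48 h, 3 higher and 3 lower at 72 h, and 0 passed between the times. In the same order, 10, 10 and 6 had an unadjusted p under 0.05. Over all probe sets, 1.12% were called higher and 0.481% lower at 48 h, and 1.16% and 1.33% at 72 h. Entpd1 (CD39), which makes the AMP that CD73 uses, differed from control by 0.13 at 48 h and -0.06 at 72 h. Ada and Adk, which remove adenosine, differed by -0.32 and 0.23 at 48 h, and Adk rose by 0.40 at 72 h (adjusted p = 0.0443), a call that was lost without any 1 of the 9 arrays (up to 0.141). P2rx7, the ATP-gated channel, rose by 1.23 (adjusted p = 0.0022) at 48 h and by 0.95 (adjusted p = 0.0084) at 72 h, and both calls held without any 1 array. Slc28a2, a concentrative nucleoside transporter, fell by 1.33 at 48 h (adjusted p = 0.0136) and also at 72 h, by 1.61 (adjusted p = 0.0072).

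The 48 h call of Slc28a2 was lost without the first control array or the first or the third Dox 48 h array (up to 0.0653). Entpd3, another ectonucleotidase, fell by 0.57 at 48 h (adjusted p = 0.0383), a call kept only without the third Dox 72 h array (up to 0.132), and by 0.86 at 72 h (adjusted p = 0.0079), a call that held without any 1 array. Acpp, a phosphatase that can also make adenosine from AMP, differed by -0.58 at 48 h (adjusted p = 0.32) and fell by 1.27 at 72 h (adjusted p = 0.0211). Its 48 h difference passed the test at the same size without the third Dox 72 h array (0.0227) and in a fit of those 6 arrays alone (0.0438), and its 72 h call was lost without any 1 of the controls (up to 0.0782). Slc29a3, a lysosomal nucleoside transporter, rose by 0.83 (adjusted p = 0.0334) at 48 h and by 0.71 (adjusted p = 0.0487) at 72 h, and these calls held in 2 and in 1 of 9 fits that left out an array.

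Around Cd59a, 19 other complement regulators and terminal components were measured, and 0 passed at 48 h or 72 h (limma, with 1 and 3 at an unadjusted p under 0.05). Of the 20 genes with Cd59a, 16 ranked below the array median on average over the 9 arrays, where a fall would be hard to see. Cd55, which is GPI-anchored and acts earlier in the cascade, was 0.34 above control at 48 h (adjusted p = 0.787), then 0.69 above it at 72 h (adjusted p = 0.254), which was 0.32 without the third Dox 72 h array. Cr1l (Crry), the transmembrane regulator of mouse cells, differed by 0.07 and -0.03. Around Cd109, 22 ligands, receptors and SMADs of TGF-beta signalling were measured. Of these, 1 was higher at 48 h (Smad3, 0.64, limma, adjusted p = 0.036) and 0 passed at 72 h. Between the times, 1 was lower at 72 h (Tgfbr2, -0.60, adjusted p = 0.032). In the 3 comparisons, 6, 6 and 7 of the 22 had an unadjusted p under 0.05. Over all probe sets, 1.12% were called higher at 48 h and 0.208% lower between the times. The Smad3 call was kept only without the third Dox 72 h array (up to 0.135) and the Tgfbr2 call was lost without any 1 of the 9 arrays (up to 0.152). Tgfb1 and Tgfbr1 differed from control by 0.06 and -0.04 at 48 h and by 0.16 and -0.20 at 72 h. None of the 6 other alpha-2-macroglobulin family genes measured passed at either time (0 had an unadjusted p under 0.05). Of the 7 genes with Cd109, 5 ranked below the array median on average.

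The genes whose log2 signal was most like that of the 4 were sought among 1597 genes with a range of at least 1 over the 9 arrays, taking the 5 with the highest Pearson's r for each. Beside the 4 genes themselves this gave 10 others, drawn in the plot of the courses, with r between 0.980 and 0.992. Cyp11a1, the mitochondrial enzyme that makes pregnenolone from cholesterol, led for Cd109 (0.989) and Nt5e (0.991), with mean log2 signals of 3.64 in control cells, 6.21 at 48 h and 4.54 at 72 h. Nr4a1, the nuclear receptor on which nonclassical monocytes depend, was among the closest to Cd109 and Pgap1 (0.985 and 0.990), at 7.08, 8.83 and 7.29. Abca1, which exports cholesterol from the cell, led for Pgap1 (0.991), at 4.38, 6.07 and 4.67.

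Cd86, the costimulatory ligand of antigen-presenting cells, was close to Cd109 and Nt5e (0.984 and 0.991), with a mean of 3.98 in control cells and 4.71 at 72 h, and 2.02 above control at 48 h. Clec4a1, a C-type lectin of myeloid cells, was close to Nt5e and Cd59a (0.986 and 0.987), with means of 5.52 in control cells, 9.64 at 48 h and 7.45 at 72 h. The others were Fam234a, Ndrg1 and the scavenger receptor Cd36 for Cd59a, and the protease Capn13 and the kinase Grk5 for Pgap1. All points are the same 9 arrays in 3 groups, so a high r says that a gene had the same 3 levels.

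**Figure D4:**
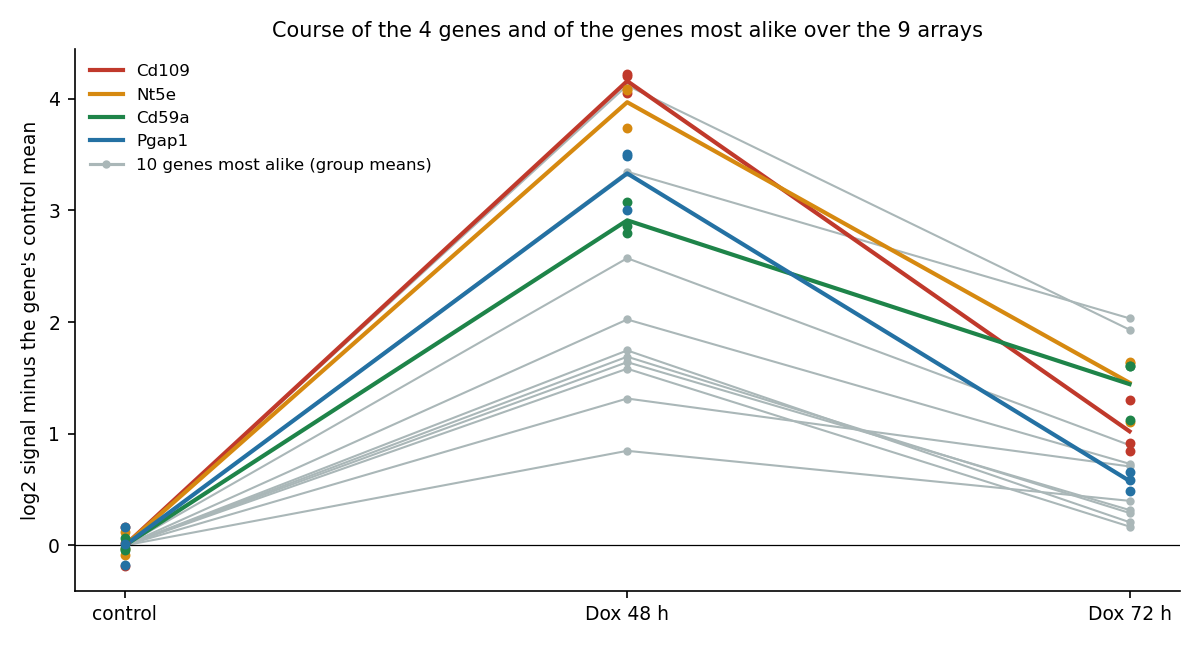
Log2 signal minus the gene's control mean at control, Dox 48 h and Dox 72 h for the 4 genes (coloured lines, with their arrays as points) and for the 10 genes most like them by Pearson's r over 9 arrays (grey). Every line is highest at 48 h, where the 4 genes reach 2.91 to 4.16 above control.

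Several of these genes mark monocytes, so the marker lists were set beside the 4 genes, as in the plot of marker levels. The nonclassical monocyte list (10 of 10 measured) averaged 6.59 to 6.72 on the control arrays, 7.76 to 7.95 on the Dox 48 h arrays and 7.35 to 7.54 on the Dox 72 h arrays, with no overlap. Of its 10 genes, 6 rose at 48 h and 5 at 72 h, where 1.12% and 1.16% of all probe sets were called higher. Ace (3.47 and 2.17) and Cd36 (3.35 and 2.03) led these, while Cx3cr1 (0.68, adjusted p = 0.299 at 48 h) and Treml4 (0.24, adjusted p = 0.853) did not pass. Between the times 3 of its 10 genes fell (Nr4a1 by 1.54, Cd36 by 1.31 and Ace by 1.29), 7 did not pass, and the median of the list was -0.14. Nr4a1 and Cd36 had also been picked as most like the 4. The part of this list in the levels of the 4 genes was not tested. At 48 h, markers of 5 cell types among those that carry CD109, CD73 or CD59 were near control: T cells averaged 4.25 to 4.31 against 4.16 to 4.69 on the control arrays, B cells 4.02 to 4.11 against 3.95 to 4.16, platelets 4.65 to 4.70 against 4.45 to 5.15, endothelial cells 4.21 to 4.26 against 4.24 to 4.31, and stroma 3.99 to 4.04 against 3.99 to 4.05. None of the measured genes of these 5 lists passed the test at 48 h (0 had an unadjusted p under 0.05). The neutrophil list is not among the 5 and was lower at 48 h, at 7.69 to 7.79 against 7.87 to 8.13 on the control arrays. Of its 9 genes, 1 was called higher, 0 lower, and 5 had an unadjusted p under 0.05. At 72 h the T cell list averaged 4.34 to 5.51 against 4.16 to 4.69 in controls, with the third array highest and 0 of 7 genes called (1 had an unadjusted p under 0.05). The NK cell list was higher on all 3 Dox 72 h arrays (3.65 to 4.20, against 3.35 to 3.50 in controls), with 1 of its 6 genes called, Klrk1 (0.90, adjusted p = 0.0108), and so was 1 of 7 B cell genes, Cd79b (0.68, adjusted p = 0.0329). The Klrk1 call held without any 1 array. The Cd79b call was lost without any 1 of the controls, any Dox 48 h array or the second Dox 72 h array (limma, adjusted p up to 0.121). The part of these cells in the 72 h levels of the 4 genes was not tested.

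**Figure D5:**
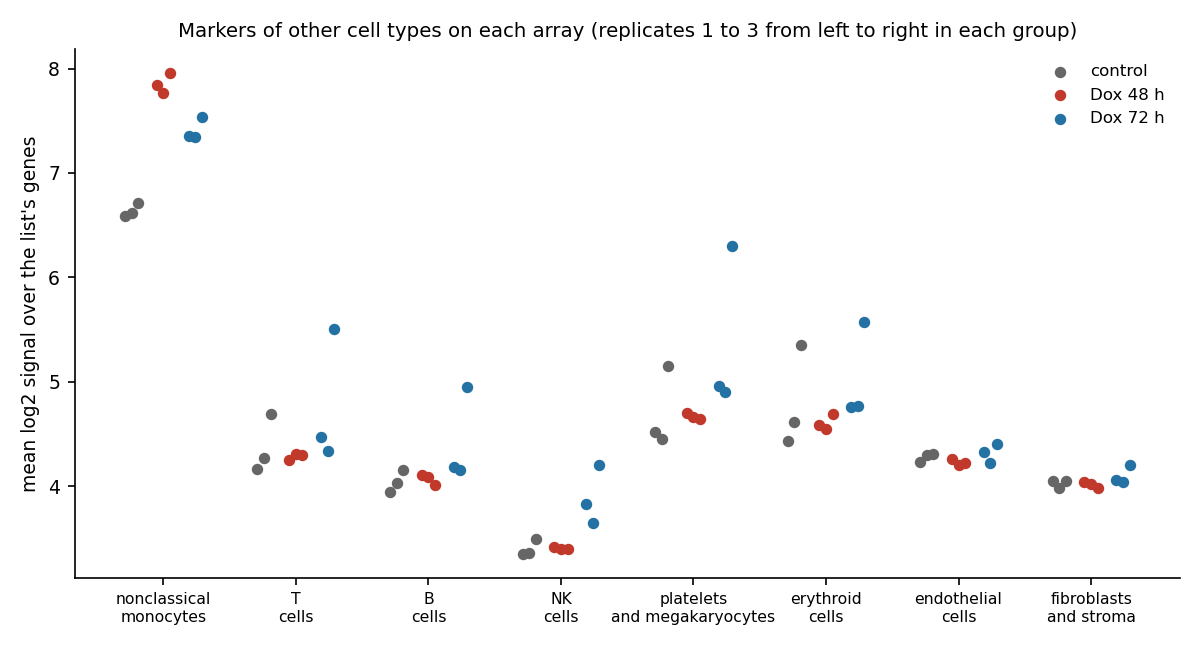
Mean log2 signal of 8 cell type marker lists on each array of control, Dox 48 h and Dox 72 h. The third Dox 72 h array stands above the other arrays for T cells (5.51) and platelets (6.30), and the nonclassical monocyte list is highest at 48 h (7.76 to 7.95).

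Of 16 neighbouring genes with a probe set, 0 passed the test in any comparison, with differences from control between -0.21 and 0.27 at 48 h and between -0.29 and 0.19 at 72 h. They included Slc17a5 and Eef1a1 beside Cd109, Snx14 and Syncrip beside Nt5e, Fbxo3 near Cd59a, and Gtf3c3 and Ankrd44 near Pgap1. Between the times the differences lay between -0.56 and 0.10, and the lowest was that of Ankrd44 (95% confidence interval -0.85 to -0.27; adjusted p = 0.152), which like Pgap1 was highest at 48 h.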

How the data were processed

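RNA of the 9 samples was hybridised to 1 array each. The deposited values are log2 signals per probe set, which the authors had normalized between arrays. The study's methods name RMA from the oligo package (background correction, quantile normalization, median polish), while MAS5, without a version, is the tool in the submitters' processing notes. The values were used as deposited, so compression of low signals by that processing remains in the differences of dim genes. Scanner files and detection calls were not used here.

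The 3 groups were compared with limma 3.58.1 in R 4.3.3 (1 mean per group over all 9 arrays, eBayes, two-sided), with Benjamini-Hochberg adjustment over all 41345 probe sets and a threshold of 0.05. Values after ± are SD over 3 arrays for a group mean and SE of the fit for a difference. The script was tested on simulated data. The replicates were labelled biological, but the labels do not tie each to a separate mouse. The p-values therefore describe the spread of these samples, which may be technical, and the number of arrays limits the precision.

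The genes and the 201 genes of the 10 pathway lists (181 measured), and the marker lists, were chosen with earlier results of these data known. Named were the 4 genes, a set of 18 pathway genes where measured, list genes past the threshold (at most 6 per list by the F test) and the 5 genes most like each of the 4. Bst2, Ly6c2, Ly6i, Ly6k, the cell type markers and the neighbours, and the refits of the first 4, were chosen after seeing the data. The marker lists for NK cells, erythroid cells, red pulp macrophages, neutrophils, and eosinophils and mast cells had 0, 0, 0, 1 and 0 genes higher and 0 lower at 48 h. In the same order, 0 of 6, 1 of 6, 2 of 10, 5 of 9 and 2 of 10 genes had an unadjusted p under 0.05. Alternatives were median centring, quantile normalization, leaving out dim probe sets, fits of 2 groups only, a trended robust prior, the replicate number as a block, and leaving out each array. Some genes of the pathways were not analysed here.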

Additional observations from a re-analysis of the deposited data

Results flagged for a closer look

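For the 4 genes and for 2 genes of their pathways, the level at 72 h of Dox was compared directly with that at 48 h. The difference, 72 h minus 48 h on the log2 scale, was -3.14 for Cd109, -2.75 for Pgap1, -2.51 for Nt5e and -1.47 for Cd59a, with limma adjusted p-values of 0.000417, 0.000555, 0.00211 and 0.0137 in that order. Every Dox 72 h array lay below every Dox 48 h array for each of the 4 genes, as for 8.15% of all probe sets. The 48 h arrays had served to choose these genes, so the p-values of the 4 are not independent of the choice and describe it in part. The same test gave -0.96 for Cd14 (adjusted p = 0.0272) and -0.60 for Tgfbr2 (adjusted p = 0.032), which were named because they passed the test in these data. All 6 were lower at 72 h, and the last 2 calls depended on single arrays as described above.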

How the results depend on the processing

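Every setting kept the direction of all 12 differences of the 4 genes. The largest shift of the median of all probe sets, from centring each array on its median, was 0.091 at 72 h against control. In a fit of only the 2 groups compared, Cd109 at 72 h against control (1.02) and Cd59a between the times (-1.47) lost their calls, and the calls numbered 276 (higher) and 113 (lower) at 48 h, 184 and 186 at 72 h, and 17 lower between the times, against 463, 199, 479, 549 and 86. Leaving out dim probe sets gave 719 higher at 72 h, and 13 higher and 164 lower between the times. Between the times, where 3 were called higher, quantile normalization gave 5 and a trended robust prior 6. With each array centred, 633 were higher and 398 lower at 72 h, against 479 and 549.

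Replicate numbers did not pair the samples: same-numbered arrays of 2 groups had correlated deviations between -0.30 and 0.21, and 4 of 9 arrays were closest to their own number. With the replicate block, Cd59a between the times was -1.47 (adjusted p = 0.0508), no other call of the 4 genes changed, and the calls numbered 254 (higher) and 73 (lower) at 48 h, 133 and 125 at 72 h, and 0 and 11 between the times.

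Without 1 array each time, the 72 h differences from control were 0.88 to 1.11 for Cd109, 1.37 to 1.63 for Nt5e, 1.36 to 1.61 for Cd59a and 0.49 to 0.66 for Pgap1, and Cd59a between the times was -1.55 to -1.31. The calls numbered 220 to 496 (higher) and 69 to 220 (lower) at 48 h, 131 to 375 and 138 to 476 at 72 h, and 0 to 3 and 13 to 60 between the times. Of the other named genes, 4 of 11 calls at 48 h, 4 of 10 at 72 h and 0 of 2 between the times held without any 1 array. The causes were not tested. A mean over probe sets could not differ, since each of the 4 genes had 1.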

Other observations

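Cyp11a1, the gene most like Cd109 and Nt5e, had a log2 signal of 4.54 on each of the 3 Dox 72 h arrays, with a standard deviation of 0 in the deposited values. On the Dox 48 h arrays it was 6.18, 6.20 and 6.25, and on the control arrays 3.50, 3.78 and 3.64. Such ties were not particular to Cyp11a1: on each of the 3 Dox 48 h arrays, Pigc was at 5.08 and Pigm at 6.36. What the ties do to the spread within groups and to the p-values was not tested. Clec4a1, close to Nt5e and Cd59a, was at 5.01, 5.53 and 6.01 on the control arrays (SD 0.498), a wider spread than any of the 4 genes had there, with means of 9.64 on the Dox 48 h arrays and 7.45 on the Dox 72 h arrays.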
